A study of Homo sapiens with 20 samples.

Results

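The 1 Mb of chromosome 6 around GPR126, which starts at position 142000001 of hg19, held almost no peaks of histone H3 acetylated at lysine 27 (H3K27ac) in the control cells and a dense block of them in cells induced to make SMARCB1. The members are the H3K27ac peaks that overlap this window, 217 of 458811 peaks in the 4 lists. GFP replicates 1 and 2 had 1 and 2 of them, and SMARCB1 replicates 1 and 2 had 108 and 106. The whole lists were longer with SMARCB1 too, 145533 and 135472 peaks against 98251 and 79555 with GFP. The window was chosen because it holds chr6:142625908-142637233, the region of highest fold enrichment among those that have a peak in each SMARCB1 library but none with GFP, counting the lower of the SMARCB1 folds. Every difference between the groups given for it is therefore a description, with no test. The smallest p that an exact permutation of 2 libraries against 2 allows, two-sided, is 0.333.

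The cells were G401, a human rhabdoid tumour line whose genotype is labelled SMARCB1(-/-). SMARCB1 belongs to the SWI/SNF complexes, which remodel chromatin. Both groups lack the endogenous gene and both were induced through a doxycycline system, the controls to make GFP and the others to make SMARCB1. The length of the induction, and whether the lines were clonal, are not given in the sources used here. The series has 20 samples in 10 groups of 2, and the libraries for H3K4me3, H3K4me1, SMARCA4 and input DNA were not analysed here. Nothing in the labels says that replicates came from separate cultures, so the spread between them may be technical. In bulk cells, more cells carrying the mark and more of the mark per cell cannot be told apart.

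GPR126, now named ADGRG6, is an adhesion G protein-coupled receptor. Receptors of this family have a long extracellular part that is cut at a site close to the membrane and signal when a tethered stretch is exposed. GPR126 raises cyclic AMP, binds type IV collagen and laminin, and is best known in Schwann cells, where it is needed to start myelination. H3K27ac marks active promoters and enhancers, and long blocks of it are often called super-enhancers. The gene lies at chr6:142.62-142.77 Mb in hg19, which is called the GPR126 interval here. No hg19 annotation was used, so peaks were not assigned to exons, introns or start sites. In the RefSeq gene order the nearest protein-coding neighbours are VTA1, a protein of endosomal sorting, on one side and HIVEP2, a zinc finger transcription factor, on the other.

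The promoter is shown because the strongest gained region lies near the end of the interval where the gene is taken to begin. The next strongest gained regions of the window lie further into the interval. The RefSeq sequence runs from 250 bases before to 50 bases after the gene start on the plus strand (GRCh38.p14), and its place among the hg19 peaks was not read. Capitals mark CpG dinucleotides.
ADGRG6 promoter: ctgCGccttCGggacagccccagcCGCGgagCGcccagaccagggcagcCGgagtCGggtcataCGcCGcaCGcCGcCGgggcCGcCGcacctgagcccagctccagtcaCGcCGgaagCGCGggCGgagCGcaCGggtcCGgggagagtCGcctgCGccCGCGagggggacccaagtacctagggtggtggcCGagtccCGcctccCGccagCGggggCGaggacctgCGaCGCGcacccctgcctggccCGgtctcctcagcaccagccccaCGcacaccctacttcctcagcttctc
It holds 36 CpG dinucleotides and is 75.3% G and C, against medians of 14 and 58.7% over 35116 promoters of the same length, 12.7% of which have at least as many CpGs. A search of both strands for TGANTCA (AP-1), TGACGTCA (CRE), GGAATG (TEAD), ACAATG (SOX) and TGTGGT (RUNX) found none of these letters in this promoter sequence. The shares of all promoters that hold them are 7.71%, 1.85%, 14.0%, 10.8% and 13.1%.

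Peaks covered 0.554 and 0.573 kb of the window in GFP replicates 1 and 2, and 117 and 104 kb in SMARCB1 replicates 1 and 2. The means were 0.564 ± 0.0134 kb and 111 ± 8.93 kb (SD, n = 2), so the difference of 110 kb was larger than the spread within either group. In the GPR126 interval of 150 kb, neither GFP library had a peak. SMARCB1 replicate 1 had 59 peaks there that covered 82.2 kb (54.8%), and replicate 2 had 64 that covered 74.8 kb (49.9%). Both SMARCB1 libraries thus had about the same amount of acetylated sequence over the gene, and the groups did not overlap. Of the 8527 windows of 150 kb that hold a peak of any library, 51.9% had more covered in both SMARCB1 libraries than in either GFP library. Nothing is read from that share, since the contrast chose the locus.

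**Figure D1:**
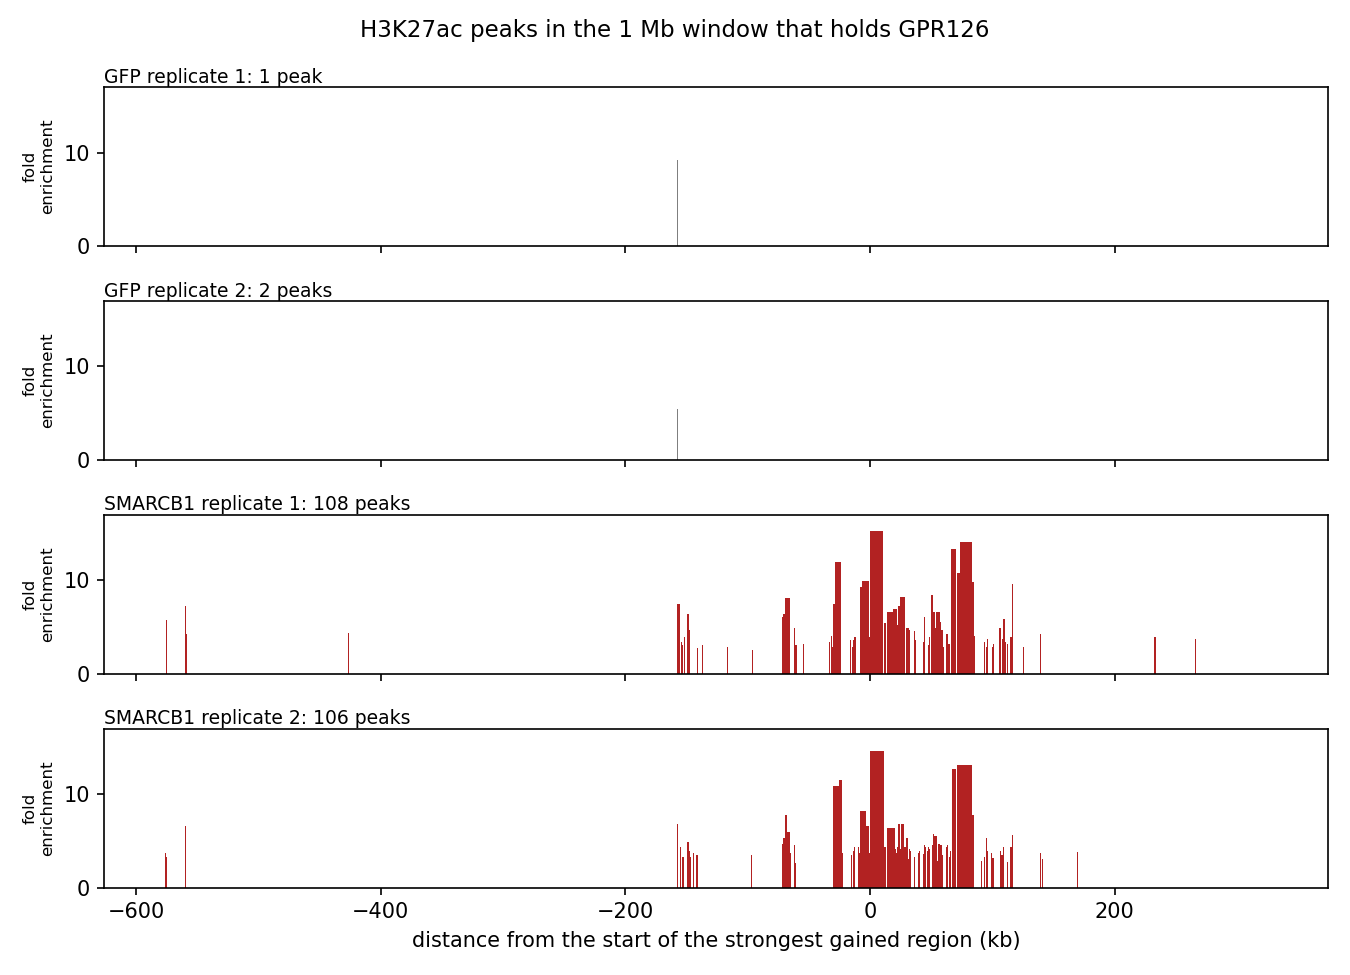
H3K27ac peaks of each library in the 1 Mb window, drawn from start to end at the fold enrichment of their summit (peaks under 600 bp are drawn 600 bp wide). The horizontal axis is the distance in kb from the start of the strongest gained region. The GFP libraries have peaks at 1 place, near -157 kb. Both SMARCB1 libraries have many closely spaced peaks, with gaps between them, from about -30 to 120 kb.

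The strongest region, chr6:142625908-142637233, lies inside the GPR126 interval and was a single wide peak in each SMARCB1 library. The peak was 11052 bp wide with a fold enrichment of 15.3 and 90 fragments at its summit in replicate 1. It was 11102 bp wide with a fold of 14.6 and 83 fragments in replicate 2. The fold enrichment is the authors'. It equals the fragments at the summit plus 1, over the background the caller expected there plus 1. That background was 4.75 fragments in replicate 2. In replicate 1 it was 4.09, on a scale on which each fragment counts as 0.855. The summits, at 142631863 and 142632255, were 392 bp apart. In its own list, 1.14% of the peaks of replicate 1 and 0.852% of those of replicate 2 had a higher fold, and 476 and 271 peaks were wider. The next gained region of the genome, just outside the first place, had a lower fold of 14.5, against 14.6 here.

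The nearest GFP peak lay 156940 bp before that region, and the nearest one after it was 525637 bp away. The stretch without any GFP peak ran from 142468968 to 143162870, which is 694 kb, and the SMARCB1 libraries had 113 and 116 peaks in it. The weakest peaks that GFP replicates 1 and 2 could show at their genome-wide background had 7 and 11 fragments, a fold of 2.83 and 2.53. Acetylation below about these levels in GFP cells was not detectable at this depth.

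A second strong part of the block lay further into the gene interval and consisted of 2 neighbouring gained regions. The wider, chr6:142696678-142709519 (12842 bp), reached a fold of 14.1 with 83 fragments in SMARCB1 replicate 1 and 13.1 with 63 fragments in replicate 2. Its summits were 45 bp apart. The other, chr6:142692075-142696448, reached 13.3 with 78 fragments and 12.7 with 61 fragments, with summits 7 bp apart. Among the 29359 gained regions of the genome these took places 9 and 15 by the lower fold of the 2 libraries. By width, the 12842 bp region was in place 5 and the strongest region in place 6.

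Before the gene interval, the strongest gained region was chr6:142595901-142602684, with a fold of 11.9 and 11.5 and 70 and 55 fragments in SMARCB1 replicates 1 and 2 (place 38). Closer to the interval, chr6:142617367-142619293 reached 9.31 and 8.22. The region chr6:142619409-142625009, which spans the start of the interval, reached 9.93 and 8.19 with summits 192 bp apart. Further out, chr6:142556745-142560893 reached 8.09 and 7.78. The acetylated stretch was thus not limited to the gene interval: 34 gained regions touched the interval, 25 lay before it and 1 after it.

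One site in the window had peaks in all 4 libraries, chr6:142468408-142470975. Its summit had 25 fragments and a fold of 9.21 in GFP replicate 1, and 25 fragments and a fold of 5.49 in GFP replicate 2. It had 43 fragments and a fold of 7.41 in SMARCB1 replicate 1, and 32 fragments and a fold of 6.75 in SMARCB1 replicate 2. The folds of the groups overlapped here. At the gained regions no GFP fold exists to compare, since they were defined by having no GFP peak. The 4 strongest summits at this site fell between 142468538 and 142468579. The peak itself was 554 and 373 bp wide in the GFP libraries, against 2568 and 801 bp in the SMARCB1 libraries. A small peak beside it, at chr6:142467734-142468177, was present in both SMARCB1 libraries and in GFP replicate 2, where its fold was 2.95.

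When peaks that overlap were merged across libraries, the window held 109 regions. Of these, 60 (55.0%) were gained, that is, seen in each SMARCB1 library but without GFP peaks, against 17.5% of the regions of the genome. Nothing is read from that contrast, since the window was chosen by it. One region was common to the 4 libraries, as were 16.7% of regions genome-wide. No region was lost, the opposite pattern, which held for 3.94% of regions genome-wide. Another 31 were found only in SMARCB1 replicate 1 and 16 only in replicate 2, and no region only in a GFP library. The gained regions of the window had a median width of 899.5 bp, against 572 bp for all gained regions, and a median lower fold of 3.91 against 3.39. Regions over 4 kb wide were 9 of the 60 (15.0%) and 176 of the 29359 (0.599%). The count of gained regions depends on how peaks are split, and was 21 with peaks within 1 kb joined. Dropping weaker peaks lowered it too, to 37 when a q-value with a -log10 of 5 was needed and 39 with equal numbers of peaks. The count was 104 without SMARCB1 replicate 1 and 106 without SMARCB1 replicate 2, because a peak in a single library then suffices.

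**Figure D2:**
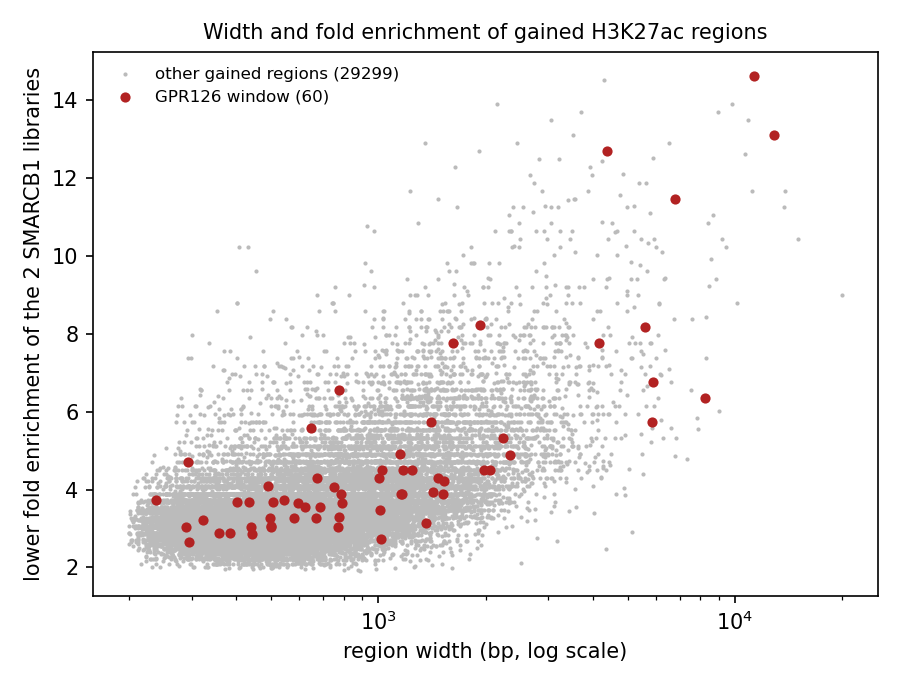
Width (bp, log scale) and lower fold enrichment of the 2 SMARCB1 libraries for every gained region. The 60 regions of the GPR126 window, in red, include the highest point of all (14.6) and also many weak, narrow regions like most others.

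The overlap between the SMARCB1 replicates is given as a description, since the window was chosen by a region strong in both. Of the 108 peaks of replicate 1 in the window, 77 (71.3%) overlapped a peak of replicate 2, and 90 of the 106 peaks of replicate 2 (84.9%) overlapped one of replicate 1. Shared over combined covered length (the Jaccard index) was 0.709 in the window and 0.755 in the gene interval, against 0.630 over the genome. The weaker members were near the limit of detection: the median peak of the window had a fold of 3.89 in both libraries, with 22 and 19 fragments, where the weakest peaks at the genome-wide background had 13 and 11.

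Depth differed between the groups in the direction of the result, most of all in GFP replicate 1. The background expected at a summit stands in for depth. It was 1.82 and 3.74 fragments in the GFP libraries and 4.79 (before scaling) and 3.89 in the SMARCB1 libraries. GFP replicate 2 and SMARCB1 replicate 2 were thus close, at 3.74 and 3.89, and had 2 and 106 peaks in the window. Thinning drew the summit fragments of each called peak down to the lowest background and dropped peaks that no longer passed a p threshold. Peaks were not called again, so kept peaks had their full-depth widths and coverage at equal depth was not measured. The SMARCB1 libraries kept 85 and 87 peaks in the window, which covered 110 and 98.0 kb, and the GFP libraries had 1 each. At 100 of the 108 and 96 of the 106 SMARCB1 peaks the caller's background was the genome-wide one of that library. With the strongest 79555 peaks of every list, the SMARCB1 libraries had 61 and 76 peaks in the window and the GFP libraries 1 and 2, so the difference in peak number was 67 in place of 105.5. With the strongest 5000 peaks of each list, the SMARCB1 libraries still had 3 and 4 and the GFP libraries none.

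The Mb on either side differed less. In the Mb before the window, peaks covered 4.53 and 5.53 kb with GFP and 27.4 and 23.7 kb with SMARCB1. In the Mb after it, they covered 28.4 and 30.4 kb with GFP and 53.5 and 43.8 kb with SMARCB1. GFP cells had strong peaks in these flanks: the highest fold was 14.9 and 12.2 in GFP replicates 1 and 2 in the Mb before, and 25.5 and 12.1 in the Mb after. Both SMARCB1 libraries covered more than both GFP libraries in either flank, as in 59.6% of the 2192 windows of 1 Mb that hold a peak of any library. Within the window, the last 230 kb, after the gene interval, held only 3 and 2 SMARCB1 peaks.

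**Figure D3:**
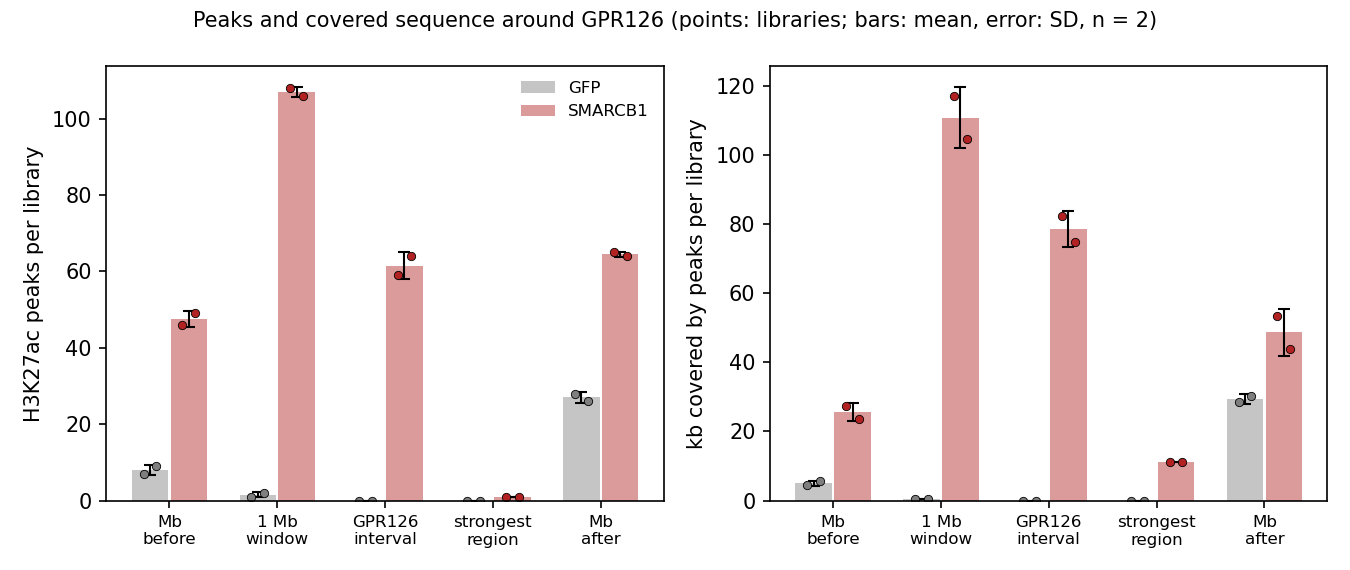
Number of H3K27ac peaks (left) and kb covered by peaks (right) in each library, for the GPR126 window, the GPR126 interval, the strongest region and the Mb before and after the window. Points are libraries, bars the mean of 2 and error bars the SD. The GFP libraries are at 0 in the interval, where the SMARCB1 libraries have 59 and 64 peaks.

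In the authors' deposited tables of stitched enhancer regions, which join peaks within 12.5 kb and, per the file headers, away from transcription start sites, no region of either GFP table fell in the window. Both GFP peak lists do hold peaks in the window, at the site common to all libraries, so these tables leave out called peaks. The table of SMARCB1 replicate 1 had 11 regions in the window and that of replicate 2 had 10. The largest ran over chr6:142592575-142751184 in replicate 1, 159 kb with 71 joined peaks that summed to 95.4 kb. In replicate 2 it ran over chr6:142594487-142742596, 148 kb with 72 joined peaks that summed to 86.4 kb. Both were marked as super-enhancers, at the authors' ranks 30 of 36063 and 70 of 30305. Of 31291 merged stitched regions of the genome, 2.02% carried the mark in each SMARCB1 table but not with GFP. The deposited identifier of this region is carried by 5 regions in the first table and 3 in the second. The rank and the mark are therefore not taken as the region's own. The share of 2.02% was counted from the same marks and has the same limit. By summed peak length the region was in place 82 and 78. A further region, chr6:142468408-142488853, which starts at the site common to all libraries, was marked in replicate 1, while its counterpart in replicate 2 was not. Their identifiers are carried by 149 and 179 regions, so these marks are not taken as the regions' own either.

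Set beside 8527 windows of 150 kb with a peak in any library, the GPR126 interval was in place 4 for its margin, the coverage of the lower SMARCB1 library minus that of the higher GFP one, 74.8 kb. The median margin was 0.139 kb. The 1 Mb window was in place 17 of 2192, with a margin of 104 kb, and in place 26 without SMARCB1 replicate 2. At least as much coverage in both SMARCB1 libraries was found in 139 of the 150 kb windows (1.63%), and 2 of these, the interval included, had no GFP peak. There were 1241 windows with no GFP peak and some SMARCB1 peak, and in 7 of them both SMARCB1 libraries covered over 20%.

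**Figure D4:**
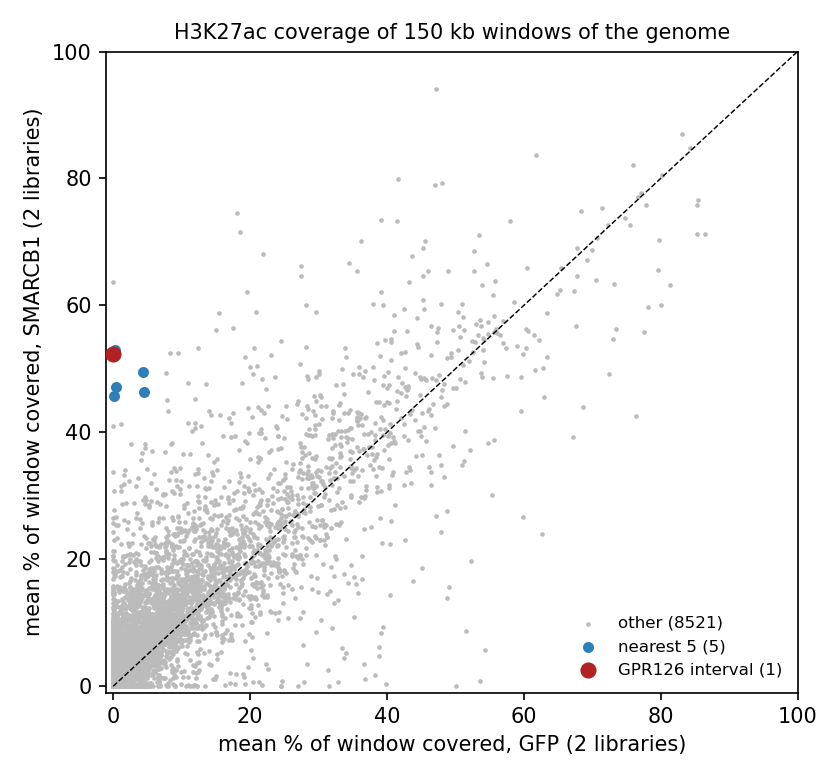
Mean share of each of the 8527 windows of 150 kb with a peak that was covered by H3K27ac peaks in the 2 GFP libraries (horizontal, %) and in the 2 SMARCB1 libraries (vertical, %). The dashed line marks equal shares, the red point is the GPR126 interval (0% and 52.4%), and the blue points are the 5 windows with the most similar values.

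The 5 windows most like the GPR126 interval, by Euclidean distance over the 4 libraries' percentages of covered bases, came from 4 chromosomes. The nearest, chr3:99570001-99720000, had 0.472% and 0% covered with GFP and 54.3% and 51.6% with SMARCB1, a distance of 1.80 percentage points. It was followed at 7.41 points by chr18:56220001-56370000, with 0.543% and 0.379% against 50.6% and 43.8%. The third, chr17:78720001-78870000, had more GFP coverage, 5.75% and 2.88%, against 55.4% and 43.7%. The window chr11:128070001-128220000 had 0.133% and 0% against 48.3% and 43.0%, and chr3:171570001-171720000 had 5.48% and 3.52% against 48.4% and 44.5%. SMARCB1 replicate 1 covered more than replicate 2 in all 5, as it did in the GPR126 interval and over the whole genome (122 against 101 Mb). These windows were picked for likeness over the same 4 libraries, and genes in them were not looked up.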

How the data were processed

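The labels give each sample's antibody and the gene that was induced, which set its group. Only the 4 H3K27ac libraries, 2 per group, were used. Reads were aligned to hg19 with BWA 0.7.12-r1039, per the submitters' processing notes, and peaks were called by MACS2 on each library, as the names of the deposited lists record. The control and the filter are not given in the sources used here. The fold enrichment (ratio), the -log10 p and -log10 q and the score of each peak are deposited values. The signal, rank and mark of stitched regions are the authors', per the file headers. Another 4 columns of per-sample values were not used. All starts of each stitched table (100%) were in the peak list of its library.

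Fragments and background at each summit were solved from the fold and -log10 p within 0.001, for 100% of peaks. The fragments of SMARCB1 replicate 1 carried a scale of 0.855. The steps were tested on simulated data. Peaks overlapping by 1 bp were merged into regions. Windows of 150 kb were laid so that the GPR126 interval was 1 of them. Likeness was the Euclidean distance in percent of bases covered, with 5 windows named. The members and lists were chosen with earlier results of these data known. The planned gene lists and summit motifs needed an hg19 annotation or genome and were not run. Alternatives were a stricter q, equal lists, thinning of called peaks, reciprocal overlap, joined peaks, other windows and leave-one-out. Shorter lists, of 20000 and 5000 peaks, were added after seeing the data. Scripts ran under Python 3.11.15 with pandas 2.3.3, numpy 2.4.6 and scipy 1.17.1, and figures were drawn with matplotlib 3.10.9.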

Additional observations from a re-analysis of the deposited data

How the results depend on the processing

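Of the 83 values recomputed, some are counts and places, which have no direction. The differences between the groups among them kept their direction. In the interval and the strongest region they could not reverse by filtering, since the GFP libraries have no peak there. The locus was also chosen by this contrast. In the window, 0 lost regions were found under each setting in which they were counted. The difference in peak number, 105.5, was 61.5 under a stricter threshold (-log10 q from 5), 67 with equal numbers of peaks, 85 after thinning and 135 in a 2 Mb window. The difference in covered length, 110 kb, was 94.9, 96.8 and, in the 2 Mb window, 123 kb, and that in the GPR126 interval, 78.5 kb, was 70.4 kb at the stricter threshold and 71.3 kb with equal numbers. Lists of the strongest 20000 and 5000 peaks gave 15.5 and 3.5 peaks, 58.5 and 27.4 kb in the window, 44.7 and 26.5 kb in the interval, and 12 and 3 gained regions, fewer by construction. The 60 gained regions were 37 at the stricter threshold, 39 with equal numbers and 21 with peaks within 1 kb joined. The place of the window among 1 Mb windows, 17, was 10 with equal numbers, and 11 after thinning, with 20000 peaks and with windows shifted by 500 kb. The place of the interval, 4, was 2 after thinning and 7 with 20000 peaks. Coverage of the strongest region, 11.1 kb, could hardly move, since the region is made of the SMARCB1 peaks themselves.

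Leaving out 1 library gave differences of 104.5 to 106.5 peaks, 104 to 116 kb in the window and 74.8 to 82.2 kb in the interval, 60 to 106 gained regions, and places 17 to 26 and 4 to 5. The most gained regions and place 26 came without SMARCB1 replicate 2, and 104 gained regions without SMARCB1 replicate 1. Pairing libraries by replicate number and averaging the pair differences gives the same means by construction, 105.5 peaks, 110 kb, 78.5 kb and 11.1 kb. The differences in pairs 1 and 2 were 107 and 104 peaks. No label ties a number to a shared batch, and with no test no call could change. Only 2 libraries per group limit the precision, and peaks under 7 and 11 fragments could not be seen in the GFP libraries.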
